A study of Mus musculus with 9 samples.

Results

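The alpha and beta globin genes, which encode the protein chains of haemoglobin, were examined in whole bone marrow of young mice. 7 genes were taken by their symbols: the adult alpha genes Hba-a1 and Hba-a2, the adult beta genes Hbb-bs and Hbb-bt, the embryonic-type beta genes Hbb-bh1 and Hbb-y, and the embryonic alpha-type (zeta) gene Hba-x. The tables held rows for 6 of the 7 among 15265 genes. Hba-x had no row and was counted as 0 in every library.

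The 4 Pot1a fl/fl libraries came from NG2-cre/Pot1a fl/fl mice, in which Cre acts on floxed alleles of Pot1a, a subunit of the shelterin complex that protects telomeres. The 5 Pot1a wt/wt libraries came from NG2-cre/Pot1a wt/wt mice, which carried the same Cre transgene with intact Pot1a. All mice were given as C57BL/6 and were aged 2 to 3 weeks. The paper's names for the floxed Pot1a and NG2-cre lines also include other strains, so the background may be mixed. Unsorted marrow was profiled by Drop-seq, in which the 3′ ends of RNA from single cells are tagged in droplets. The NG2 promoter is known to drive Cre in pericytes and mesenchymal stromal cells, and is not known for activity in the red cell precursors that make globin. The labels do not tie libraries to single mice, and the study counts fewer mice than libraries, so p-values measure the spread between these libraries, part of which may be technical.

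Each library held 100 barcodes, of which 899 of 900 were kept. Total counts per library ran from 119459 to 465277, with a median of 955.5 to 3704 counts per cell. Pot1a itself had 1 to 15 counts in Pot1a fl/fl libraries and 2 to 10 in Pot1a wt/wt libraries, too few to check the genotypes in marrow. Pot1a wt/wt 2 and 3 had 19 barcodes in common, the only 1 of 36 pairs of libraries that shared any, and the counts of those cells correlated at 0.961 to 0.999 across genes. No globin gene was called in the main comparisons below, nor with both counted as 1 library, where the shared cells stayed in the sum from each. The whole-marrow log2 fold changes (Pot1a fl/fl over Pot1a wt/wt) did move. They were then -0.92 for Hba-a1, -1.035 for Hba-a2, -0.847 for Hbb-bs and -1.121 for Hbb-bt, against -0.711, -0.802, -0.62 and -0.913. Y-linked counts were present in Pot1a fl/fl 2, Pot1a wt/wt 2 and Pot1a wt/wt 3, whereas the other 6 libraries carried Xist counts and no Y-linked counts.

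Haemoglobin is assembled from alpha-type and beta-type chains, and red cell precursors produce both in near balance because unpaired chains precipitate and damage the cell. The genes lie in separate clusters on different chromosomes, and within each cluster embryonic-type genes are silenced as definitive erythropoiesis takes over, while adult genes are switched on strongly in late erythroblasts. In mice, Hbb-y and Hbb-bh1 belong to the primitive red cells of the yolk sac, and low Hbb-bh1 expression is also known from definitive precursors of the fetal liver.

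On GRCm38 in the GENCODE vM21 annotation, Hba-x (chr11:32276400-32278116), Hba-a1 (chr11:32283511-32284465) and Hba-a2 (chr11:32296489-32297298) lie on the plus strand. Hbb-bt (chr7:103812524-103813996), Hbb-bs (chr7:103826534-103828096), Hbb-bh1 (chr7:103841637-103843164) and Hbb-y (chr7:103851749-103853216) lie on the minus strand. Each main transcript has 3 exons and between 554 and 801 bases. The 2 alpha genes are near-identical copies: their annotated mRNAs differed at 1 of 538 aligned bases, and the 300 bases around their starts matched over 297 without a difference. The adult beta genes were less alike, with 37 differences in 607 aligned mRNA bases and 29 in 279 aligned bases near the 3′ end. A read from either alpha gene can therefore fit both copies, and the split between Hba-a1 and Hba-a2 is uncertain. The annotated Hba-a2 mRNA also runs 16 bases past the place where the annotated Hba-a1 mRNA stops, although the shared sequence leads up to that place in both.

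The 200 bases before the RefSeq start (GRCm38.p6) are shown for 1 adult alpha gene, both adult beta genes and an embryonic-type gene, because the adult genes moved together across libraries and the embryonic-type genes were nearly silent. The Hba-a1 window is not shown, since it repeats that of Hba-a2 moved by 3 bases. In the genes shown, GENCODE places the start upstream of the RefSeq start, so part of each window lies inside the GENCODE gene. The gap is widest in Hbb-bs, with starts at 103828096 (GENCODE) and 103827928 (RefSeq). Capitals mark short motifs found on either strand: CACCC, bound by KLF-type factors, then CCAAT, bound by NF-Y, then GATAA, bound by factors such as GATA1, and the promoter element TATAA. In Hbb-bt, the motif CCAAT stands on both strands in adjoining positions, 80 to 76 (minus) and 75 to 71 (plus) bases before the start. A further minus-strand match stands at 36 to 32, and no 2 motifs overlapped.
Hba-a2, chr11:32296292-32296491, plus strand: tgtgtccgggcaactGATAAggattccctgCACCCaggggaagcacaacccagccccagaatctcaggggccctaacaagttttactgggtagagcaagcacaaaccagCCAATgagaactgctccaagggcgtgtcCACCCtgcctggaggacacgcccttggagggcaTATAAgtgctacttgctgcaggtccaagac
Hbb-bs, chr7:103827929-103828128, minus strand: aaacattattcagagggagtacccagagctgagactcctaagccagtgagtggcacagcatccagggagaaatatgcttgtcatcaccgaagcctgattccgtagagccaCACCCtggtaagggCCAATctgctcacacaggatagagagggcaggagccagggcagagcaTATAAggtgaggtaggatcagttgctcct
Hbb-bt, chr7:103813924-103814123, minus strand: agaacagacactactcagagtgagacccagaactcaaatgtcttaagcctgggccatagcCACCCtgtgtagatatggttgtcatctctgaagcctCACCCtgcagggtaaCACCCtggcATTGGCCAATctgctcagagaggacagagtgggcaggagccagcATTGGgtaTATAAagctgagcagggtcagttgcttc
Hbb-y, chr7:103853208-103853407, minus strand: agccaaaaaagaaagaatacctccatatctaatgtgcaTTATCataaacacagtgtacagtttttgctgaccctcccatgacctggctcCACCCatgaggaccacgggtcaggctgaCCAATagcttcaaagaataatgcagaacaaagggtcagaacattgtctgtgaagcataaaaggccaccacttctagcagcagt
Of the 6 globin promoters in the RefSeq table, CACCC was found in 6, against 45.5% of all 32851 promoters over the same length. The motif CCAAT was found in 5 (29.3% of all promoters), GATAA in 4 (18.1%) and the motif TATAA in 5 (18.5%). All 4 motifs together stood in the windows of Hba-a1 and Hba-a2 and in 0.481% of all promoters. TATAA was missing from the Hbb-y window. Such matches describe the letters of these windows only.

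The 4 adult genes made up nearly all globin counts, with 70873 globin counts among 2615722 counts in kept cells, or 2.71%. Hbb-bs, an adult beta gene, was the most abundant with 34840 counts, followed by Hba-a1 with 19380, Hbb-bt with 9994 and Hba-a2 with 6622. Because Drop-seq counts tags at the 3′ end, these figures are tags per gene and were not divided by length.

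Hba-a1 had 6001, 2106, 12590 and 5257 CPM (counts scaled to the same total in every library) in Pot1a fl/fl 1 to 4, against 18430, 5017, 3970, 6078 and 20580 CPM in Pot1a wt/wt 1 to 5. Pot1a wt/wt 1 and 5 and Pot1a fl/fl 3 stood far above the other 6 libraries, and the genotypes overlapped. Hba-a2, the second alpha copy, had 1883, 690.2, 4303 and 1844 CPM in Pot1a fl/fl libraries, against 6903, 1527, 994.8, 2065 and 7702 CPM in Pot1a wt/wt libraries. The same 3 libraries were the highest, and the genotypes again overlapped.

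Hbb-bs had 10290, 4501, 25350 and 10080 CPM in Pot1a fl/fl libraries, against 31540, 7705, 6076, 10390 and 42580 CPM in Pot1a wt/wt libraries. Hbb-bt, the other adult beta gene, had 2450, 1405, 5734 and 2586 CPM in Pot1a fl/fl libraries, against 11320, 2345, 2502, 2846 and 10020 CPM in Pot1a wt/wt libraries. Both beta genes overlapped between genotypes, and Pot1a fl/fl 2 was the lowest library for all 4 adult genes. The order of the gene means, Hbb-bs above Hba-a1 above Hbb-bt above Hba-a2, held in 9 of 9 libraries, with mean CPM of 12560, 6488, 3044 and 2180 in Pot1a fl/fl libraries and 19660, 10820, 5807 and 3838 in Pot1a wt/wt libraries. Standard deviations across libraries ran from 1520 to 8941 CPM in Pot1a fl/fl and from 3197 to 16430 CPM in Pot1a wt/wt. Despite this spread, each neighbouring difference in the order of the gene means had the same sign in 9 of 9 libraries.

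**Figure D1:**
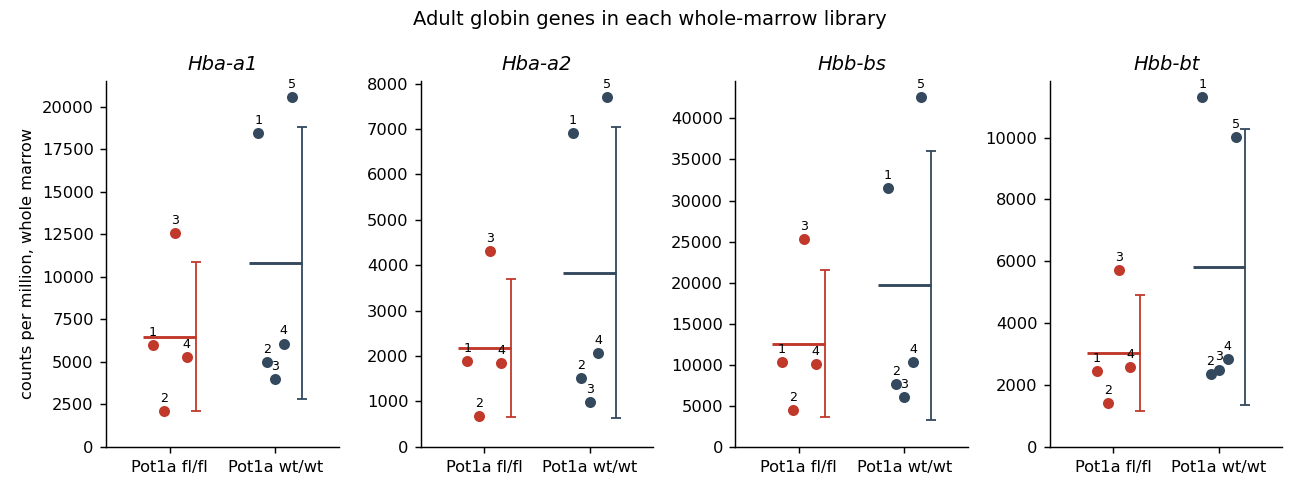
CPM of the 4 adult globin genes in each whole-marrow library, numbered by replicate, with Pot1a fl/fl in red and Pot1a wt/wt in dark blue; horizontal lines are group means, vertical bars are 1 SD, and each panel has its own axis from 0. Pot1a wt/wt 1 and 5 and Pot1a fl/fl 3 lie above the rest in every panel, and the genotypes overlap.

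The first comparison asked whether globin transcripts differed between genotypes in whole marrow. Counts were summed per library, fitted with edgeR's quasi-likelihood test over 4559 genes and adjusted by Benjamini-Hochberg. Log2 fold changes (Pot1a fl/fl over Pot1a wt/wt) were -0.71 ± 0.52 (SE) for Hba-a1, -0.80 ± 0.57 for Hba-a2, -0.62 ± 0.55 for Hbb-bs and -0.91 ± 0.51 for Hbb-bt, with edgeR adjusted p of 0.777, 0.772, 0.849 and 0.687. None of the 4 passed the test at an adjusted p of 0.05, where 0.0658% of all genes tested did (3 of 4559, with 364 at an unadjusted p under 0.05) and DESeq2 called 4. Without the filter on low counts, Hbb-bt alone passed (log2 fold change -0.94, edgeR adjusted p = 0.0261). Hbb-bh1 and Hbb-y did not reach the count filter, so the 4 tested members are the adult genes, with a median of -0.76 beside -0.0017 for all genes tested.

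Erythroid-like cells, described next, numbered 24, 14, 28 and 20 in Pot1a fl/fl libraries, against 29, 36, 42, 36 and 32 in Pot1a wt/wt libraries, and their part in the whole-marrow values was not tested separately from the level per cell. In summed marrow, fewer erythroid cells and less globin RNA per cell cannot be told apart. Depth and sex also moved with the globin level. The 3 libraries richest in globin had the lowest medians of counts per cell (955.5 in Pot1a fl/fl 3, 1085 in Pot1a wt/wt 5 and 1966.5 in Pot1a wt/wt 1). Over 9 libraries, globin percent and median counts per cell gave Pearson's r = -0.72 (exact permutation p = 0.0319, adjusted 0.0319 over 2 relations) and Spearman's rho = -0.50 (exact permutation p = 0.178, adjusted 0.178). Without the 2 libraries farthest from the median depth, r was -0.45, so the relation rests on Pot1a fl/fl 3 and Pot1a wt/wt 5. Among libraries with Y-linked counts, globin made up 0.870% in Pot1a fl/fl 2, against 1.36% and 1.66% in the 2 Pot1a wt/wt libraries. Among the others it made up 1.98% to 4.80% in Pot1a fl/fl, against 2.14% to 8.09% in Pot1a wt/wt. The part of depth and sex in the genotype comparison was not tested beyond a fit with sex as a term, which called no globin gene.

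To separate globin inside and outside erythroid cells, cells were clustered with every globin-family gene removed and clusters were named from marker lists that contain no globin. Cluster 1 (160 cells) had Hemgn, an erythroid nuclear protein, and Slc4a1, the anion exchanger of the red cell membrane, among its leading genes, and had 24 erythroid markers among its top 50 genes by fold. Cluster 5 (101 cells) was led by Mt2, Fam132a, Mt1 and Mthfd1 and rested on 3 erythroid markers, Mt2, Fam132a and Car1, the fewest that the naming rule allows. The 261 erythroid-like cells of both clusters were set against 638 other cells.

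Globin counts made up 6.93%, 3.58%, 12.4% and 6.70% of all counts in erythroid-like cells of Pot1a fl/fl 1 to 4, against 19.3%, 2.95%, 2.17%, 4.70% and 15.6% in Pot1a wt/wt 1 to 5. Exact 95% (Clopper-Pearson) counting intervals were at most 0.672 percentage points wide, far narrower than the spread between libraries, and such intervals cover counting error only. Pot1a wt/wt libraries held both the 2 highest and the 2 lowest values, so Pot1a fl/fl lay within their range. Outside the class, globin made up 0.429%, 0.410%, 1.37% and 0.447% in Pot1a fl/fl libraries, against 1.53%, 0.522%, 0.436%, 0.354% and 2.82% in Pot1a wt/wt libraries. The level was higher inside than outside in 9 of 9 libraries, by 4.98 to 16.1-fold (median 9.08).

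**Figure D2:**
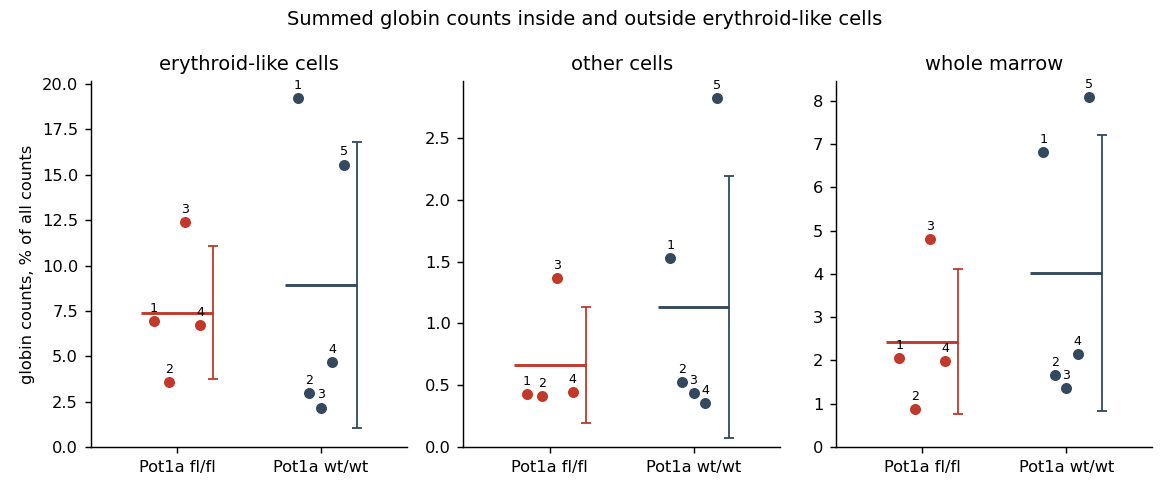
Globin counts as a percent of all counts in erythroid-like cells, in other cells and in whole marrow of each library, with Pot1a fl/fl in red and Pot1a wt/wt in dark blue; lines are group means, bars are 1 SD, and axes start at 0. Erythroid-like cells reached 12.4% in Pot1a fl/fl 3 and 19.3% in Pot1a wt/wt 1, whereas other cells stayed at or below 2.82%.

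Within erythroid-like cells, edgeR gave log2 fold changes of -0.38 ± 0.61 (SE) for Hba-a1, -0.54 ± 0.67 for Hba-a2, -0.33 ± 0.66 for Hbb-bs and -0.61 ± 0.60 for Hbb-bt, each with an edgeR adjusted p of 0.999. No globin gene passed, nor did any other of 1792 genes (0%; 56 at an unadjusted p under 0.05; 0 by DESeq2). The directions did not hold up: without Pot1a wt/wt 1 they turned to 0.23, 0.13, 0.17 and 0.17, and in cluster 1 alone, chosen after the data were seen, to 0.22, 0.10 and 0.32 for Hba-a1, Hba-a2 and Hbb-bs. In other cells the log2 fold changes were -0.73 ± 0.58 for Hba-a1, -0.74 ± 0.57 for Hba-a2, -0.73 ± 0.55 for Hbb-bs and -0.95 ± 0.55 for Hbb-bt, with edgeR adjusted p between 0.839 and 0.868. Without Pot1a wt/wt 5 they were -0.004 for Hba-a1, -0.107 for Hba-a2, -0.004 for Hbb-bs and -0.318 for Hbb-bt, and without Pot1a fl/fl 3 they were -1.64, -1.55, -1.32 and -1.55. No globin gene passed there, beside 0.0325% of all genes (1 of 3075, with 182 at an unadjusted p under 0.05; 1 by DESeq2).

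Globin was concentrated in few cells. Cluster 1 held 77.5% of all globin counts in 160 cells, and cluster 5 held 5.35%. The 5 cells with most globin carried 46.2%, 52.9%, 39.4% and 56.8% of the globin counts of Pot1a fl/fl 1 to 4, against 32.3%, 45.3%, 39.1%, 44.7% and 44.3% in Pot1a wt/wt 1 to 5. These cells were erythroid-like in all but 1 case each in Pot1a fl/fl 3 and Pot1a wt/wt 2. A median erythroid-like cell had 5.35%, 0.773%, 6.26% and 4.76% globin in Pot1a fl/fl libraries, against 23.7%, 1.73%, 1.08%, 2.90% and 11% in Pot1a wt/wt libraries. The highest single cell reached 64.7% in Pot1a fl/fl 3 and 60.3% in Pot1a wt/wt 1. Erythroid-like cells at or above 10% globin numbered 8, 3, 12 and 5 in Pot1a fl/fl, against 22, 8, 5, 10 and 18 in Pot1a wt/wt.

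Across clusters, globin took a median of 11.6% of counts in cluster 1 over libraries (range 5.15% to 27.9%). In cluster 5 the median was 0.552% (range 0.291% to 5.29%), which lies among the values of the non-erythroid clusters. Those ranged from 0.294% in cluster 4 (Vpreb1, Igll1, Dntt) to 0.710% in cluster 3 (Fcrla, Cd72, Igkc), both B-lineage-like, with granulocyte-like clusters 2, 6 and 9 at 0.578%, 0.341% and 0.476%, monocyte/macrophage-like cluster 8 at 0.507% and cluster 7 (Col1a2, Sparc, Ctla2a) at 0.377%. The range of cluster 1 overlapped only with that of cluster 5, whose highest library was Pot1a wt/wt 1. At least 1 globin count was found in 97.4% to 100% of cells of every cluster. After thinning each cell to 500 counts, which left out 12 shallower cells of Pot1a fl/fl 3, the shares were 99.8% in cluster 1, 78.6% in cluster 5 and 75.4% to 86.9% elsewhere, so a globin count alone did not distinguish cluster 5 from B-lineage-like or granulocyte-like cells. Detection of globin outside cluster 1 was therefore not read as expression by those cells.

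The share of alpha among adult globin counts was compared next. In whole marrow, Hba-a1 and Hba-a2 together made up 38.2%, 32.1%, 35.2% and 35.9% of adult globin counts in Pot1a fl/fl libraries, against 37.2%, 39.4%, 36.7%, 38.1% and 35.0% in Pot1a wt/wt libraries. Exact 95% intervals were at most 3.74 points wide. Means were 35.4% ± 2.51 (SD, n = 4) and 37.3% ± 1.66 (SD, n = 5), a difference of -1.89 points (95% interval -5.2 to 1.25, two-sided exact permutation p = 0.230, adjusted 0.460 over 6 comparisons). Taken as a mean over cells with at least 5 adult globin counts, the difference was -5.81 points (exact permutation p = 0.0159 unadjusted), a weighting in which other cells count as much as erythroid-like ones.

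Within erythroid-like cells, alpha made up 39.8% ± 2.56 of adult globin counts in Pot1a fl/fl libraries (SD, n = 4) and 39.4% ± 1.34 in Pot1a wt/wt libraries (SD, n = 5). The difference was 0.40 points (95% interval -2.85 to 3.40, exact permutation p = 0.762, adjusted 0.841). In other cells alpha made up 22.5% ± 4.80 in Pot1a fl/fl libraries and 25.3% ± 4.16 in Pot1a wt/wt libraries, a difference of -2.76 points (95% interval -10.2 to 4.0, exact permutation p = 0.389, adjusted 0.583). No difference between genotypes was detected in either set of cells, and with 4 and 5 libraries the smallest p is 0.00794.

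Inside and outside erythroid-like cells, by contrast, the alpha share was different in each library. It was 41.1%, 42.7%, 36.9% and 38.7% in erythroid-like cells of Pot1a fl/fl 1 to 4, against 22.8%, 16.4%, 28.2% and 22.6% in other cells of the same libraries. In Pot1a wt/wt 1 to 5 it was 40.3%, 41.0%, 38.4%, 39.6% and 37.8% in erythroid-like cells, against 20.2%, 31.4%, 26.7%, 23.8% and 24.2% in other cells. The 2 sets did not overlap, and the mean difference was 15.6 points (SD 5.52, 95% interval 11.5 to 20.1, higher in 9 of 9 libraries). The exact sign-flip permutation p of 0.00391 is the smallest that 9 libraries allow (adjusted p = 0.0234 over 6 comparisons). Pooled over libraries, alpha made up 39.9% in cluster 1 (95% interval 39.5% to 40.3%) and 33.8% in cluster 5 (32.3% to 35.4%). It was between 19.5% in cluster 4 and 29.2% in cluster 8 (95% interval 26.7% to 31.8%) in non-erythroid clusters. These pooled intervals cover counting error only. By library, the alpha share ran from 37.9% to 44.8% in cluster 1 and from 22.0% to 46.0% in cluster 5 (SD 2.1 and 8.05). Pot1a wt/wt 1 supplied 487 of the 1283 alpha counts of cluster 5. Granulocyte-like and B-lineage-like cells each lay below the erythroid-like cells of their library in 9 of 9 libraries, and monocyte/macrophage-like cells in 8 of 9. The exception was Pot1a wt/wt 2, where 1 monocyte/macrophage-like cell carried 267 of the 290 globin counts of its class at 48.7% alpha. This cell also supplied 267 of the 1261 adult globin counts behind the pooled value of cluster 8.

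**Figure D3:**
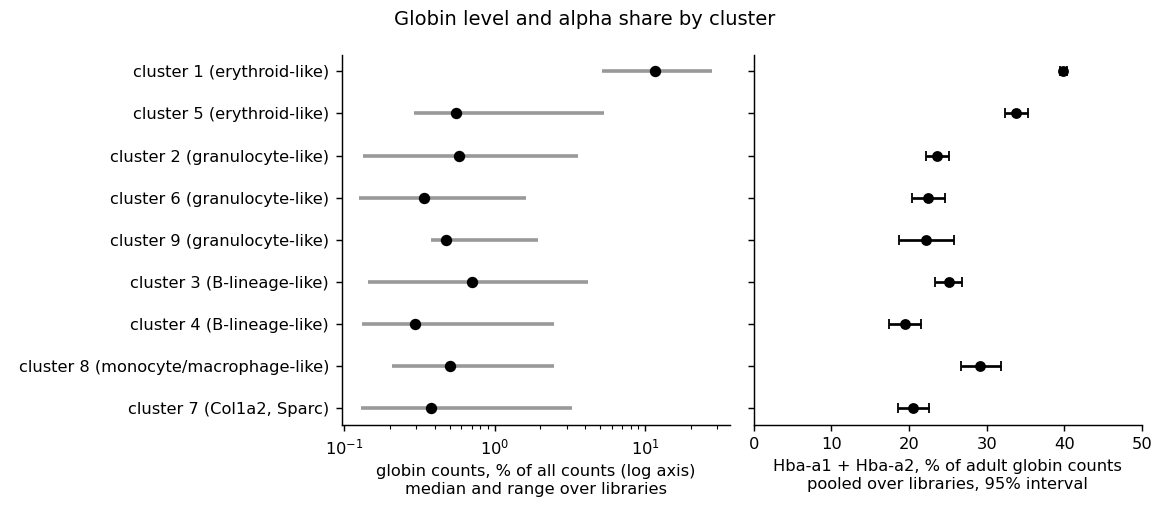
Left, globin counts as a percent of all counts by cluster on a log axis, with the median (point) and range (line) over libraries with at least 5 cells; right, the percent of adult globin counts from Hba-a1 and Hba-a2, pooled over libraries, with exact 95% intervals. Cluster 1 stands at a median of 11.6% globin and 39.9% alpha, and non-erythroid clusters lie at 19.5% to 29.2% alpha.

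Outside the class, 10 cells had at least 10% globin (10.2% to 28.9%). They came from 5 libraries and from clusters 2, 3, 7, 8 and 9, and together held 16.0% of the globin counts of other cells. They showed a median of 6.5 of 35 erythroid markers, against 19 in erythroid-like cells and 2 in other cells, and 1 of the 10 was among the cells marked as possible doublets. Alpha made up 34.0% of their adult globin counts and 21.3% in the remaining other cells. With these cells left out, a choice made after the data were seen, alpha was 17.9 points higher inside than outside (9 of 9 libraries, exact sign-flip permutation p = 0.00391).

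The split between near-identical copies was examined as a further check on the counts. Hba-a2 made up 23.9%, 24.7%, 25.5% and 26% of alpha counts in whole marrow of Pot1a fl/fl libraries, against 27.2%, 23.3%, 20.0%, 25.4% and 27.2% in Pot1a wt/wt libraries. The means of 25% ± 0.913 (SD, n = 4) and 24.6% ± 3.04 (SD, n = 5) differed by 0.36 points (95% interval -3.35 to 4.60, exact permutation p = 0.841, adjusted 0.841). Hbb-bt made up 19.2%, 23.8%, 18.4% and 20.4% of adult beta counts in Pot1a fl/fl libraries, against 26.4%, 23.3%, 29.2%, 21.5% and 19.0% in Pot1a wt/wt libraries. The means of 20.5% ± 2.36 (SD, n = 4) and 23.9% ± 3.99 (SD, n = 5) differed by -3.42 points (95% interval -9.05 to 1.90, exact permutation p = 0.190, adjusted 0.460). As a mean over cells the difference was -4.93 points (exact permutation p = 0.0238 unadjusted).

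The Hba-a2 share also differed between cell sets. It averaged 23.4% ± 2.70 in erythroid-like cells and 33.8% ± 5.06 in other cells (SD, n = 9 each), and was lower inside the class in 9 of 9 libraries, by 1.12 to 19.4 points. The Hbb-bt share had no common direction: it averaged 23.6% ± 4.98 in erythroid-like cells and 19.6% ± 2.71 in other cells, higher inside in 5 of 9 libraries. These shares were compared after the data were seen and are given without a test. Since 3′ tags of Hba-a1 and Hba-a2 come from almost the same sequence, how ambiguous reads were assigned could enter this split, and its part was not tested.

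**Figure D4:**
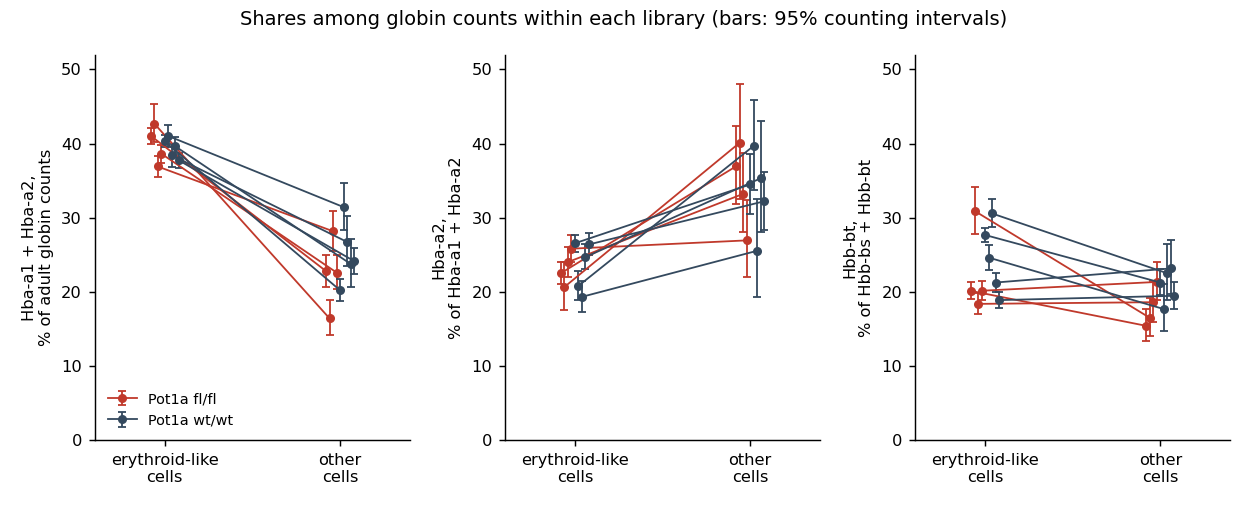
Alpha share of adult globin counts, Hba-a2 share of alpha counts and Hbb-bt share of adult beta counts in erythroid-like and other cells, with a line for each library (Pot1a fl/fl in red, Pot1a wt/wt in dark blue) and exact 95% counting intervals. In 9 of 9 libraries the alpha share is higher and the Hba-a2 share lower in erythroid-like cells, while Hbb-bt lines cross.

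Within erythroid-like cells, the shares were also read by the globin level of the cell. In the 81 cells below 1% globin, 75 of them from cluster 5, alpha made up 29.6% of adult globin counts (exact 95% interval 27.2% to 32.0%). It made up 37.8% in 60 cells at 1% to 5%, 38.7% in 29 cells at 5% to 10%, 40.4% in 63 cells at 10% to 30% and 39.7% in 28 cells at 30% or more (exact 95% interval 39.0% to 40.4%). The alpha share was lowest in the range with least globin. Hba-a2 took a different course, with 29.8%, 18.0%, 17.4%, 22.5% and 30.6% of alpha counts from the lowest to the highest range. Within libraries, Hba-a2 was higher in cells at or above 10% globin than below in 8 of 9 libraries, by a median of 3.75 points, with Pot1a fl/fl 2 as the exception at -3.60 points on 3 globin-rich cells. These ranges pool cells of up to 9 libraries of unequal depth and are a description.

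Embryonic-type globins were close to absent. Hbb-bh1 had 4, 0, 4 and 1 counts in Pot1a fl/fl libraries, against 15, 4, 1, 1 and 3 counts in Pot1a wt/wt libraries. That is 33 counts in 28 cells, or 0.0466% of all globin counts (exact 95% interval 0.0320% to 0.0654%). Hbb-y had 1 count each in Pot1a fl/fl 3 and Pot1a wt/wt 1, 4 and 5 and none in the other 5 libraries. Hba-x had no row and was counted as 0, and a missing row gives no upper limit on its share. The counts were too few for a comparison of genotypes, and Pot1a wt/wt 1 supplied 16 of the 37 embryonic-type counts.

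The Hbb-bh1 counts lay where adult globin was abundant. Cluster 1 held 32 of the 33, which is 0.0583% of its globin counts (exact 95% interval 0.0399% to 0.0823%), and other cells held 1 of 12189 globin counts (0.00820%, exact 95% interval 0.000208% to 0.0457%). Cluster 5 had 0 of 3793, with an exact 95% interval that ends at 0.0972%. Allowing up to 3 counts for a count of 0 gives a share of up to 0.0791%. The difference between these shares was not tested, and the value in other cells rests on 1 count. Cells with an embryonic-type count had a median of 575 globin counts, against 12 in cells without one, and 29 of these 31 cells were erythroid-like. No cell had more than 3 embryonic-type counts. By sequence, Hbb-bh1 and Hbb-bs differed at 108 of 454 aligned mRNA bases, and their longest identical run was 22 bases.

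**Figure D5:**
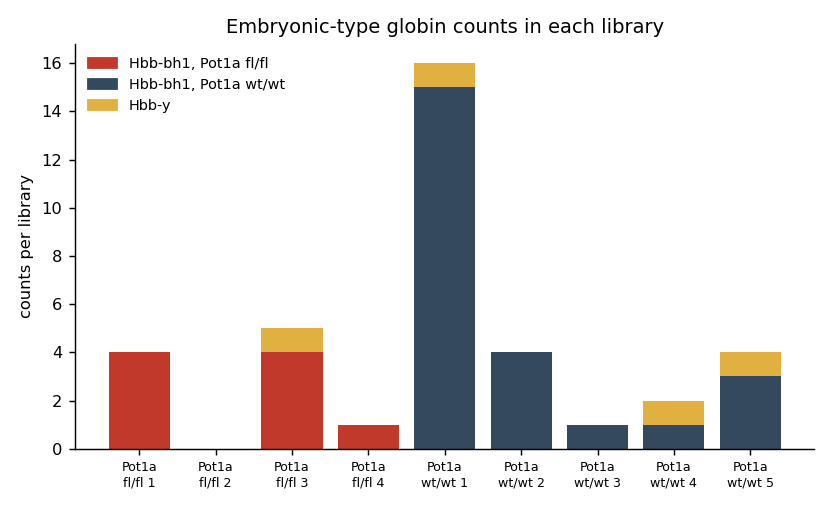
Counts of Hbb-bh1 and Hbb-y in each library, stacked, with Hbb-bh1 in red for Pot1a fl/fl and dark blue for Pot1a wt/wt and Hbb-y in yellow. Pot1a wt/wt 1 has 16 counts, no other library has more than 5, and Pot1a fl/fl 2 has none.

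Globin levels inside and outside erythroid-like cells were both highest in Pot1a wt/wt 1, Pot1a wt/wt 5 and Pot1a fl/fl 3. These libraries also had the lowest medians of counts per cell, whose part was not tested. Between the levels inside and outside, Pearson's r was 0.82 over 9 libraries (exact permutation p = 0.00628, adjusted 0.0126 over 2 relations). Spearman's rho was 0.62 (exact permutation p = 0.0857, adjusted 0.171). Without Pot1a wt/wt 1 and 5, the 2 libraries farthest from the median, r was 0.83. That value depends on Pot1a fl/fl 3, at 12.4% inside and 1.37% outside. The rest lay at 2.17% to 6.93% inside and 0.354% to 0.522% outside. The globin percent of other cells was not a fixed fraction of that in erythroid-like cells, as the 4.98 to 16.1-fold range above shows.

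Genes among the 5 whose pattern was most like the summed adult globins, over 74 sums of a library and a cluster and 2247 genes, were Slc4a1 (r = 0.84), Alas2 (r = 0.75), the erythroid enzyme that starts haem synthesis, Hemgn (r = 0.73) and Prdx2 (r = 0.71), an abundant red cell peroxidase. The points share libraries and their depth. Clusters were formed from non-globin genes, and each gene named here was also an erythroid marker used to name clusters. A high r across clusters was therefore partly set by the clustering. Over the 18 points of clusters 1 and 5 alone, r was 0.95 for Slc4a1, 0.94 for Prdx2, 0.91 for Alas2 and 0.89 for Hemgn.

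Globin regulators and genes that handle globin chains were described beside the globins. In whole marrow 13 of 17 listed symbols were tested, 2 with a positive and 11 with a negative log2 fold change (median -0.22, against -0.0017 for all genes), and none passed the edgeR test. Klf1, the main activator of adult beta globin, averaged 97.3 ± 46.8 CPM in Pot1a fl/fl libraries and 177 ± 24.0 CPM in Pot1a wt/wt libraries (log2 fold change -0.85 ± 0.30, edgeR adjusted p = 0.435). Within erythroid-like cells Klf1 averaged 384 ± 134 and 391 ± 68.9 CPM (log2 fold change 0.02 ± 0.26, edgeR adjusted p = 0.999), and 6 of 10 tested list members were positive and 4 negative (median 0.08). The list members with the highest CPM beside Klf1 were Lyar, Myb, Lmo2, Zbtb7a and Bcl11a, whose log2 fold changes in whole marrow lay between -0.23 and -0.05. Some less abundant erythroid transcription factors, named after their values were seen, lay further from 0. Tal1 had -1.17 ± 0.41, Sox6 -1.12 ± 0.45 and Gata1 -0.55 ± 0.31 (edgeR adjusted p of 0.433, 0.505 and 0.699). The 2 positive members in whole marrow were Nfe2 (0.14 ± 0.36) and Ldb1 (0.003 ± 0.33). Within erythroid-like cells Tal1 had -0.39 ± 0.48, Sox6 -0.10 ± 0.52 and Gata1 0.14 ± 0.32 (edgeR adjusted p of 0.999 for each). Bcl11a, a repressor of embryonic-type and fetal globin genes, had log2 fold changes of -0.06 ± 0.24 in whole marrow and 0.29 ± 0.34 in erythroid-like cells (edgeR adjusted p of 0.972 and 0.999). In other cells 7 members were tested, 3 positive and 4 negative (median -0.04). Ahsp, the chaperone of free alpha chains, had no row in the tables.

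Haem synthesis and iron import genes, which supply the cofactor of globin, were negative in 14 of 14 tested members in whole marrow (median -0.76, none passing). Of all genes tested there, 2291 of 4559 were negative (median -0.0017). Several list members, among them Cpox and Tfrc, were also markers used to name erythroid-like clusters. In summed marrow, the number of erythroid cells and the level per cell cannot be told apart for these genes. Cpox averaged 343 ± 140 CPM in Pot1a fl/fl libraries and 764 ± 268 CPM in Pot1a wt/wt libraries (log2 fold change -1.09 ± 0.28, edgeR adjusted p = 0.333), and Tfrc, the transferrin receptor, 393 ± 158 and 678 ± 38.9 CPM (-0.74 ± 0.23, edgeR adjusted p = 0.371). Within erythroid-like cells the log2 fold changes were -0.36 ± 0.24 for Cpox and -0.36 ± 0.29 for Tfrc (edgeR adjusted p of 0.999 for each). In erythroid-like cells 4 of 12 list members were positive and 8 negative (median -0.11). In other cells 4 of 4 were negative (median -0.92), again with none passing. Of 10 other globin-family symbols only Hbq1b, a theta-type alpha-like gene, and Hbb-bh2 had rows, with 57 counts and 1 count, and neither reached the count filter.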

How the data were processed

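Whole bone marrow of 9 libraries was profiled by Drop-seq. According to the methods and the submitters' processing notes, the authors aligned reads to mm10 with STAR and built tables of read counts per gene and cell with the Drop-seq software. Tool versions, the annotation, the handling of reads that fit several genes, how 100 barcodes were picked and any collapsing of molecular identifiers are not stated in the labels or methods. The deposited values are counts (whole numbers, not normalised). Every file was used.

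Barcodes with at least 200 counts and at most 25% mitochondrial counts were kept. Cells were clustered with Seurat 5.3.0 (anchor integration of libraries, 2000 variable genes, 20 components, resolution 1) without 8 globin-family genes. A cluster took a name when at least 3 fixed markers of a class stood among its top 50 genes by fold. Scrublet (scanpy 1.11.5) gave an unstable automatic threshold (0 to 77 cells per library), so doublets were kept and an alternative left out the 5 highest scores per library.

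Counts were summed per library (with at least 10 cells) and tested with edgeR 4.0.16 (TMM, filterByExpr, quasi-likelihood test, Benjamini-Hochberg over all genes tested); the fit was tested on simulated data. DESeq2 1.42.0 was an alternative. Shares were compared by exact permutation of genotype labels over libraries or exact sign flips of within-library differences, in scipy 1.17.1. Sequences and motifs came from RefSeq and GENCODE tables and were aligned with Biopython 1.88. A count of 0 allows up to 3 counts.

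All 7 globins were named, and up to 6 members of each list by mean CPM. Further regulators were named for their values, their direction or a missing row. Similar genes were the 5 with the highest Pearson r of log2(CPM + 10), with at least 200 counts. 1 of these 5 is not reported here. The members, lists and markers were chosen with earlier results of these data known. Alternatives covered normalisation, filters, replicate block, left-out libraries, cell classes, clustering and weights of cells.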

Additional observations from a re-analysis of the deposited data

Results flagged for a closer look

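In other cells, Pot1a fl/fl 3 stood apart from the 3 remaining Pot1a fl/fl libraries by a gap that took up most of the group's range. Hba-a1 had 2567 CPM there, Hba-a2 1277 CPM and Hbb-bs 7967 CPM, against 403.6 to 737.9, 270.5 to 361.8 and 2717 to 2859 CPM in the other Pot1a fl/fl libraries. This library also had the fewest counts (119459) and the lowest median per cell (955.5), whose part was not tested. Of 34 groups of values examined, chance would mark about 1 in 20.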

How the results depend on the processing

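Alpha stayed higher in erythroid-like than in other cells under 18 alternatives of cells, classes, weights and libraries (14.2 to 16.7 points; 14.2 to 16.4 with each library left out, p = 0.00781 by exact permutation, the smallest that 8 libraries allow), and at 17.9 points without globin-rich other cells. No globin gene was called under any alternative, except Hbb-bt in whole marrow with no filter on low counts (1 gene of 69 called among 15264, log2 fold change -0.94, edgeR adjusted p = 0.0261). Over all genes, edgeR called 3 in whole marrow, 0 in erythroid-like cells and 1 in other cells, against 69, 7 and 40 with no filter and 1 to 4, 0 to 1 and 1 to 3 under the remaining alternatives. With means over cells, whole-marrow differences were -5.81 points for the alpha share (exact permutation p = 0.0159) and -4.93 points for the Hbb-bt share (exact permutation p = 0.0238). Within classes, means over cells gave alpha differences of -1.20 points in erythroid-like cells (exact permutation p = 0.635) and -1.79 points in other cells (exact permutation p = 0.151). The cause of these differences was not tested. The alpha difference in erythroid-like cells (0.40 points) turned to -0.0165 with the replicate block, -1.20 with means over cells and -0.158 without doublet-marked cells, and ran from -0.554 to 1.38 with each library left out. The Hba-a2 difference (0.36 points) turned to -0.423 with Pot1a wt/wt 2 and 3 as 1 library and -0.00485 within sex, and ran from -0.792 to 1.01 with each library left out. In whole marrow, leaving out 1 library moved log2 fold changes between -1.34 and -0.33 for Hba-a1, -1.45 and -0.37 for Hba-a2, -1.31 and -0.10 for Hbb-bs and -1.49 and -0.48 for Hbb-bt. In erythroid-like cells they ran from -0.72 to 0.23, -0.90 to 0.13, -0.81 to 0.17 and -0.93 to 0.17, turning positive without Pot1a wt/wt 1 (and for Hbb-bs without Pot1a wt/wt 5), and in other cells from -1.64 to -0.004, -1.55 to -0.107, -1.32 to -0.004 and -1.55 to -0.318, nearest 0 without Pot1a wt/wt 5. Cluster 1 alone gave 0.215, 0.096 and 0.316 for Hba-a1, Hba-a2 and Hbb-bs; cluster 5 alone could not be fitted, with too few libraries of 10 cells. The replicate block gave 0.502, 0.538, 0.542 and 0.354 in erythroid-like cells and 0.137 for Hbb-bs in other cells, with no call. Replicate numbers did not pair the libraries (correlations of same-numbered deviations -0.014, -0.026, -0.162 and 0.006). Sex as a term, cluster 1 alone, the doublet rule and the removal of globin-rich cells were chosen after seeing the data. Low embryonic-type counts limit every statement on Hbb-bh1, Hbb-y and Hba-x.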

Other observations

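Hbq1b, an alpha-like gene at the far end of the alpha cluster, had 7, 0, 1 and 8 counts in erythroid-like cells of Pot1a fl/fl 1 to 4, against 14, 2, 5, 6 and 5 counts in Pot1a wt/wt 1 to 5. In other cells it had 0, 0, 0 and 3 counts in Pot1a fl/fl, against 3, 0, 0, 1 and 2 counts in Pot1a wt/wt. The single Hbb-bh2 count was in an erythroid-like cell of Pot1a wt/wt 1.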
